A study of Mus musculus with 6 samples.

Results

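The neurons described here were 315 of 3360 retained cell barcodes (9.38%) in Drop-seq libraries of mouse spinal cord. Drop-seq captures single cells in droplets on beads, whose primers mark the cell of origin (the barcode) and each RNA molecule (the unique molecular identifier, UMI). A barcode was retained if it had 200 or more genes and no more than 20% mitochondrially encoded (mt-) UMIs. Neuron barcodes were then chosen by measured UMIs: each had at least 2 UMIs summed over 8 genes (Snhg11, Miat, Chd5, Ryr2, Unc80, Peg3, Myt1l and Srrm3) and under 3 UMIs over the oligodendrocyte genes Mag, Mog, Cldn11 and Ermn. Levels of the 8 rule genes in these barcodes are therefore descriptions, with no test, and so is every contrast of neuron barcodes with other barcodes.

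The 6 libraries formed 3 groups of 2. SOD1-Nec was SOD1-G93A mice given Necrostatin-1s, SOD1-Veh was SOD1-G93A mice given vehicle, and WT-Veh was wild-type mice given vehicle. SOD1-G93A mice carry a mutant human superoxide dismutase 1 transgene and model amyotrophic lateral sclerosis (ALS), and Necrostatin-1s inhibits the kinase RIPK1. Cords were dissociated with Accutase, myelin was depleted, and live cells were taken from an OptiPrep gradient. The labels used here give neither age nor sex nor the promoter of the transgene, and leave unsaid whether libraries of a group came from separate animals, so p-values reflect library-to-library spread only, which may be technical.

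Spinal neurons are large cells with long axons and very high transcription. Motor neurons signal with acetylcholine, inhibitory interneurons with GABA or glycine, and excitatory interneurons with glutamate. Motor neurons are the cells lost in ALS. Neurons express long non-coding RNAs such as Meg3, Miat and Snhg11 that stay largely in the nucleus, and genes for channels, receptors, synapses and axonal transport. Enzymatic dissociation of cord is known to break axons and dendrites and to recover few neurons.

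Libraries held 1508618 to 1767205 UMIs. Only 1 Sod1 entry is in the tables, so transgene and mouse transcripts cannot be told apart. In retained barcodes Sod1 stood at 3887 and 4636 normalised CPM (UMIs per 1000000 UMIs of the tested genes, with each library's total scaled by its TMM factor) in SOD1-Nec, at 4274 and 6066 in SOD1-Veh and at 265 and 183 in WT-Veh, so it was high in all 4 libraries labelled SOD1-G93A. Between 4 and 9 barcodes were shared by each of the 15 pairs of libraries, and none of these was a neuron barcode. Scrublet, a doublet caller, marked 29 retained barcodes, of which 2 were neuron barcodes. A single library, WT-Veh 2, held 174 of the 315 neuron barcodes (55.2%), so differences between groups and the main descriptions of the class are also given without it.

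Neuron barcodes were shallow. Their median was 476 UMIs and 283 genes, against 620 UMIs and 324 genes in the other 3045 retained barcodes. Their mitochondrial share was higher than that of other barcodes in every library. The median was 11.9% and 9.97% in neuron barcodes of SOD1-Nec, against 8.0% and 7.32% in the other barcodes. In SOD1-Veh it was 15.8% and 12.8% in neuron barcodes against 6.27% and 7.36% in the others, and in WT-Veh 8.52% and 6.12% against 5.26% and 5.00%.

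Across the neuron barcodes the 8 rule genes gave 2508 UMIs. Snhg11, a long non-coding host of small nucleolar RNAs, supplied 959 of them (38.2%) and was detected in 81.3% of neuron barcodes. Chd5, a nucleosome remodeller of neurons, was detected in 57.1%, the imprinted zinc-finger gene Peg3 in 41.6%, and Myt1l, a transcription factor that represses non-neuronal genes, in 40.3%. The calcium-release channel Ryr2, the nuclear RNA Miat, the sodium-leak channel subunit Unc80 and the microexon splicing factor Srrm3 were each detected in 30.5% to 35.6%. A single rule gene carried the membership of 42 barcodes (13.3%), 211 barcodes had at least 3 of the rule genes, and 3 had all 8.

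The label was next described with neuronal RNA that the rule did not use. This is no independent check, since Meg3 and the gene lists were chosen with earlier results of these data known. Meg3, an imprinted long non-coding RNA and a marker named for this class, was detected in 85.1% of neuron barcodes, with 2001 UMIs. In microglia, which should lack it, 14.2% of 500 barcodes had a Meg3 UMI at a higher median depth of 715 UMIs, and a share of that order was taken as background, whose source was not tested. Without WT-Veh 2 the shares were 70.2% of 141 neuron barcodes and 8.05% of 410 microglia. A set of 204 neuronal genes outside the rule made up 1.15% of UMIs in barcodes with exactly 2 rule UMIs, 1.31% with 3 to 4, 3.38% with 5 to 9 and 3.68% with 10 or more. Outside the threshold it made up 0.628% in the 318 barcodes with 1 rule UMI and 0.503% in barcodes with none. Meg3 made up 0.0222% of UMIs with no rule UMI, 0.0492% with 1, 0.163% with 2, 0.364% with 3 to 4, 1.13% with 5 to 9 and 1.1% with 10 or more. Its last value was 1.85% without the deepest barcode, which is described below, and that of the 204 genes was 4.64%. Without WT-Veh 2 the 204 genes stood at 0.494%, 0.649%, 1.11%, 0.985%, 2.95% and 2.70% in the same order from no rule UMI to 10 or more, and Meg3 at 0.0162% with none and 0.406% with 10 or more. Levels at 2 to 9 rule UMIs were thus lower than with all libraries, and the steps at 2 to 4 less regular. The values at 10 or more include the deepest barcode, which held 43509 of the 59084 UMIs there. No value without both is at hand, so these are not read as an effect of leaving out WT-Veh 2.

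**Figure D1:**
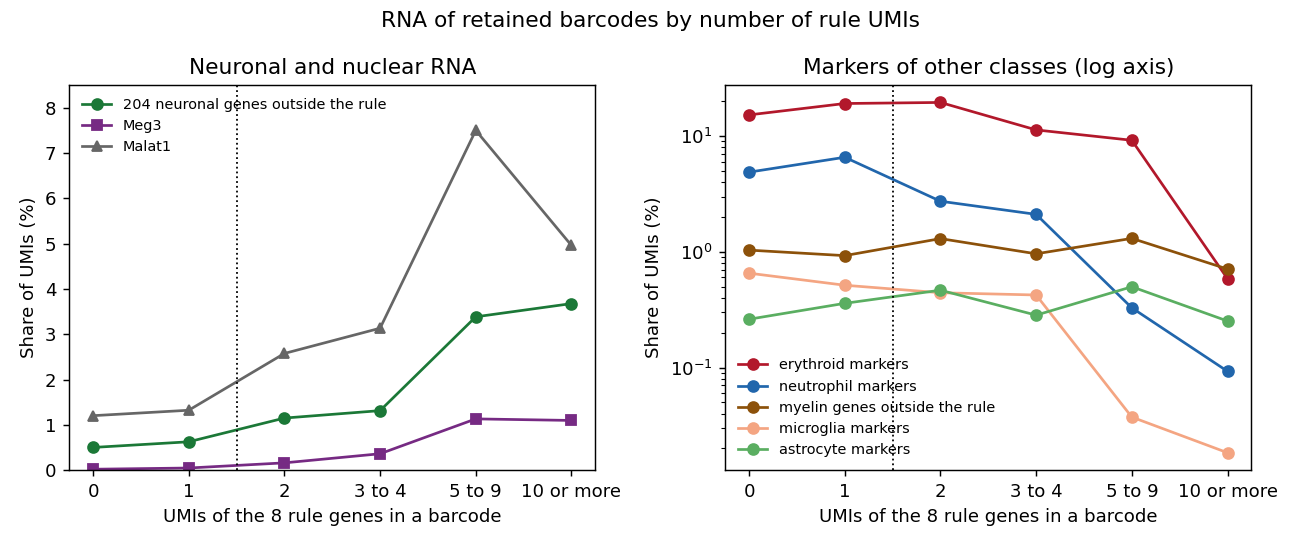
Share of UMIs (%) against the number of UMIs of the 8 rule genes in a retained barcode, pooled over the 6 libraries. Left, 204 neuronal genes outside the rule, Meg3 and the nuclear RNA Malat1; right, marker lists of other classes on a log axis. The dotted line is the threshold of membership; neuronal RNA made up 3.38% of UMIs at 5 to 9 rule UMIs, against 0.503% at 0.

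Nearly all neuron barcodes carried RNA of other classes, and those just inside the threshold carried more microglial, neutrophil and erythroid RNA. Few had under 3 UMIs of each other class list. They numbered 0 and 0 in SOD1-Nec, 1 and 0 in SOD1-Veh and 1 and 15 in WT-Veh. At least 3 myelin UMIs outside the rule were present in 105 barcodes with 2 to 4 rule UMIs and 154 with at least 5. The 117 neuron barcodes with 2 to 4 rule UMIs carried 0.433% of UMIs from 10 microglial markers, 2.43% from 10 neutrophil markers and 15.5% from 8 erythroid markers. The 198 with at least 5 rule UMIs carried 0.0246%, 0.170% and 3.42%. Astrocyte markers (0.377% and 0.333%) and myelin genes outside the rule (1.13% and 0.906%) were closer together. At least 3 microglial UMIs were present in 22 of the 117 and in 3 of the 198. The low-count part made up 64.4% and 78.3% of the neuron barcodes in SOD1-Nec, 44.4% and 60.0% in SOD1-Veh and 33.3% and 23.6% in WT-Veh. The label "neurons" therefore fitted the barcodes with at least 5 rule UMIs better than those with 2 to 4, and the part of other cells' RNA in the results below was not tested.

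The deepest neuron barcode stood apart. It came from SOD1-Nec 1 and held 43509 UMIs and 8044 genes, 61.7% of that library's neuron UMIs and 16.4% of all neuron UMIs. All 17 of its rule UMIs were Peg3. It also carried 348 UMIs of 6 ependymal markers, genes of the ciliated cells that line the central canal. Of the UMIs found in all neuron barcodes it supplied 441 of 518 for the imprinted gene Nnat, 121 of 132 for the ciliary gene Ccdc153 and 227 of 544 for Sod1.

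Apart from the rule genes, the 20 genes with the largest ratio of neuron barcodes over other retained barcodes included genes of splicing, of ion channels and of the axonal membrane. Trank1 reached 151 CPM in neuron barcodes against 1.03 CPM in the others, with 40 UMIs. Srrm4, which like Srrm3 drives neuronal microexon splicing, reached 155 against 1.72 CPM. Sptbn4, the spectrin of the axon initial segment, reached 125 against 2.76 CPM, and Coro6, an actin-binding coronin, 186 against 2.07 CPM. The glycine receptor subunit Glra1 reached 98.4 against 2.41 CPM, the sodium-activated potassium channel Kcnt1 174 against 4.82, the calcium-release channel Ryr3 299 against 7.23, and Unc79, the partner of Unc80, 79.5 against 2.07. Otof, a calcium sensor of vesicle release known from hair cells, gave 178 UMIs and 674 against 14.8 CPM. The ratios of the 20 genes ran from 35.6 to 147, and from 9.33 to 90.2 without WT-Veh 2. Among the 20, the ciliary genes Ak7 and Ccdc113 came mainly from the deepest barcode, with 57 of 68 and 27 of 30 UMIs.

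Gene lists were read as shares of UMIs, which count transcripts at their 3′ ends and are not divided by gene length. The 20 neuronal lists together (230 genes, 213 of them in the tables, rule genes included) made up 6.13% of UMIs in neuron barcodes with at least 5 rule UMIs, 1.77% with 2 to 4, 0.696% in other retained barcodes and 0.757% in barcodes with under 100 genes, taken here as mostly free RNA. Of 147 neuronal genes with at least 20 UMIs, 135 were above 1-fold and 80 at least 5-fold higher in neuron barcodes than in the others, with a median ratio of 5.92. Over all 10668 genes with that many UMIs, 5559 were above 1-fold and 900 at least 5-fold higher, with a median of 1.06. Both counts include the rule genes, so they describe the class and test nothing. The 204 neuronal genes outside the rule had a median ratio of 5.11 over the 138 with that many UMIs in retained barcodes, and of 2.58 over 110 genes without WT-Veh 2.

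In what follows the rule genes are left out of every list. The median ratio of neuron barcodes over the others was then 25.6 for 5 long non-coding RNAs, 23.9 for 6 sodium channel genes, 14.1 for 10 genes of calcium channels and calcium release, and 8.68 for 13 neurotransmitter receptors. Without WT-Veh 2 these medians were 12.7, 7.91, 6.48 and 2.59, over 2, 4, 9 and 7 genes. The list of calcium channels and calcium release made up 0.264% of UMIs in neuron barcodes with at least 5 rule UMIs, against 0.0271% in the others, and sodium channel genes 0.0941% against 0.00503%. The calcium list also holds the calcium pump Atp2b1, which was detected in 30.8% of neuron barcodes and 19.8% of microglia. Atp2b1 stood at 882 CPM in neuron barcodes with at least 5 rule UMIs and at 197 CPM in the others, so it supplied much of the list's share in the latter. Cacna1d, an L-type calcium channel not on that list, was detected in 27.6% of neuron barcodes and 3.0% of microglia. Cacna1e, the R-type channel, was 21.2-fold higher in neuron barcodes, and the sodium channels Scn1a and Scn2a1 23.9-fold and 23.8-fold. The AMPA receptor subunit Gria2 was detected in 29.8% of neuron barcodes and 1.0% of microglia. Its level was 640 CPM in neuron barcodes, 305 CPM in those without WT-Veh 2, and 375 CPM in astrocytes of all libraries.

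Genes of the cell body's cytoskeleton and of the axon were well detected too. Map1b, a microtubule-associated protein, gave 412 UMIs in 49.8% of neuron barcodes, against 4.8% of microglia. The neurofilament genes Nefm, Nefh and Nefl gave 379, 130 and 121 UMIs and were 12.2-fold, 13.9-fold and 5.10-fold above the other barcodes. Rbfox3, which encodes the neuronal nuclear antigen NeuN, was 16.0-fold higher, and the kinesin Kif1a 7.26-fold. Snap25, of the synaptic release machinery, was 4.46-fold higher, with 52 UMIs. Without WT-Veh 2, Nefm, Nefh and Nefl were 10.1-fold, 8.08-fold and 3.07-fold higher, Rbfox3 6.28-fold, Kif1a 3.95-fold and Snap25 2.80-fold. Of genes with at least 20 UMIs, 18 of 20 on the axonal transport list and 18 of 19 on the synaptic list were above 1-fold. Over all genes 5559 of 10668 were. The median ratios of the 2 lists were 3.29 and 4.46, and 2.39 and 2.29 without WT-Veh 2. Syt11 was at 0.658-fold. Without the deepest barcode, Tuba1a went from 1.67-fold to 0.544-fold and Dynll1 from 1.16-fold to 0.642-fold.

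Neuronal genes differed in how far they exceeded free RNA. Outside the rule genes, long non-coding RNAs were at 1.16% of UMIs in neuron barcodes with at least 5 rule UMIs against 0.101% in free RNA, and neuronal chromatin and transcription genes at 0.138% against 0.0213%. Pan-neuronal protein genes were at 0.452% against 0.109% and axonal transport genes at 1.09% against 0.288%. The shares of these 4 lists without WT-Veh 2 were 0.547% against 0.0436%, 0.0882% against 0.0190%, 0.271% against 0.106% and 0.920% against 0.282%. In oligodendrocytes, axonal transport genes made up 1.09% of UMIs and pan-neuronal protein genes 0.247%. Synaptic genes were at 0.280% there, against 0.261% in neuron barcodes with at least 5 rule UMIs. Long non-coding RNAs were at 0.0687% in oligodendrocytes and chromatin and transcription genes at 0.0543%, rule genes included. Axonal transport and synaptic lists were thus not particular to neurons. Over all 5590 genes with at least 20 UMIs, 5200 were above 1-fold in neuron barcodes over free RNA, with a median ratio of 4.13. Nefl at 1.91-fold and Snap25 at 2.05-fold lay below that median. Snhg11, a rule gene, at 33.9-fold and Meg3 at 7.90-fold lay above it. In neuron barcodes with at least 5 rule UMIs the median over all genes was 3.72. The summed pan-neuronal protein and axonal transport lists, at 4.15-fold and 3.79-fold, were near it. Malat1, a nuclear RNA of all cells, made up 7.50% of UMIs at 5 to 9 rule UMIs and 1.20% with no rule UMI.

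**Figure D2:**
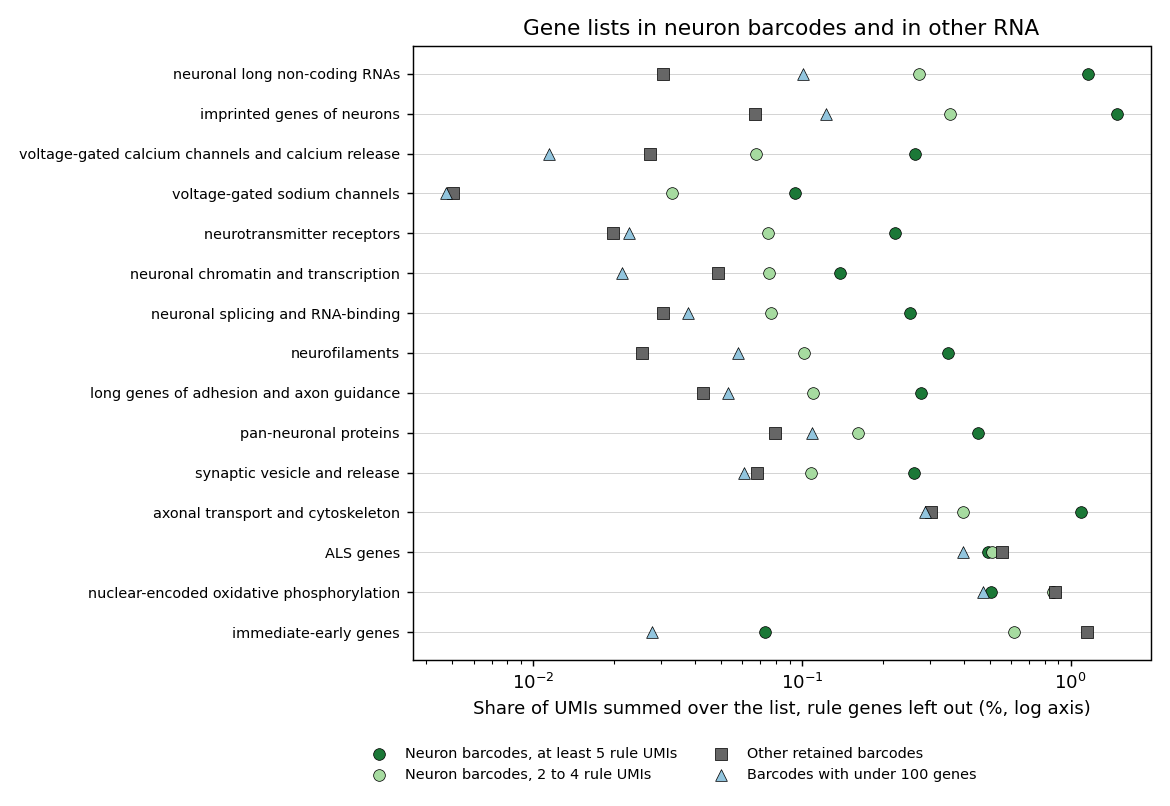
Share of UMIs (%, log axis) summed over each gene list, rule genes left out, in neuron barcodes with at least 5 rule UMIs, neuron barcodes with 2 to 4, other retained barcodes and barcodes with under 100 genes. Neuronal long non-coding RNAs reached 1.16% in the first kind against 0.0303% in other retained barcodes; immediate-early genes were at 0.0727% against 1.15%.

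Lists that are not specific to neurons differed in direction. Immediate-early genes such as Fos and Egr1 made up 0.0727% of UMIs in neuron barcodes with at least 5 rule UMIs, 0.614% with 2 to 4, 1.15% in other retained barcodes and 4.92% in microglia. Nuclear-encoded oxidative phosphorylation genes were at 0.506% against 0.872% in other retained barcodes. The ALS gene list was at 0.493% against 0.555%, and at 0.315% against 0.555% without the deepest barcode. That barcode left out, its UMIs in neuron barcodes with at least 5 rule UMIs fell from 760 to 349. Without WT-Veh 2, but with the deepest barcode kept, the list was at 0.649% against 0.606%. The turn in order is therefore not read as a trait of the class. A list of 3 nuclear-retained RNAs of all cells was higher, at 5.84% against 1.29%, and at 3.88% against 1.19% without WT-Veh 2. Of the necroptosis genes, Ripk1, the target of Necrostatin-1s, had 5 UMIs in all neuron barcodes, and Ripk3 and Mlkl had 0.

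Transmitter identity was visible in few barcodes. A UMI of an inhibitory gene (Gad1, Gad2, Slc32a1 or Slc6a5) was found in 17 neuron barcodes, of the vesicular glutamate transporter Slc17a6 in 5, and of the cholinergic genes Chat or Slc5a7 in 9. No neuron barcode had UMIs of more than 1 of these kinds. Together 31 neuron barcodes (9.84%) had such a UMI, against 44 of the 3045 others (1.44%). They numbered 2 and 2 in SOD1-Nec, 3 and 0 in SOD1-Veh and 5 and 19 in WT-Veh. Slc6a5, the glycine transporter of inhibitory neurons, had 9 UMIs in neuron barcodes and 0 in other retained barcodes. Chat, the enzyme that makes acetylcholine, had 4 UMIs, all in WT-Veh 2. The other cholinergic gene, Slc5a7, had 8 UMIs, 4 of them outside WT-Veh 2. With so few UMIs motor neurons could not be described as a group, and the reason was not tested.

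The first comparison between groups concerns the share of retained barcodes that were neurons. In SOD1-Nec 1 they were 45 of 661 barcodes, or 6.81% (95% Clopper-Pearson interval 5.01 to 9.0), and in SOD1-Nec 2 they were 23 of 794, or 2.90% (1.84 to 4.31). In SOD1-Veh 1 they were 18 of 399, or 4.51% (2.70 to 7.04), and in SOD1-Veh 2 they were 10 of 437, or 2.29% (1.1 to 4.17). In WT-Veh 1 they were 45 of 515, or 8.74% (6.44 to 11.5), and in WT-Veh 2 they were 174 of 554, or 31.4% (27.6 to 35.5). Both WT-Veh libraries lay above all 4 mutant libraries, and the SOD1-Nec and SOD1-Veh libraries overlapped at these limits. They did not overlap among barcodes with at most 10% mt- UMIs, at 3.81% and 2.47% in SOD1-Nec and 1.02% and 0.678% in SOD1-Veh, or with at least 400 genes, at 4.49% and 3.30% in SOD1-Nec and 2.62% and 1.04% in SOD1-Veh. The intervals cover counting error only.

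**Figure D3:**
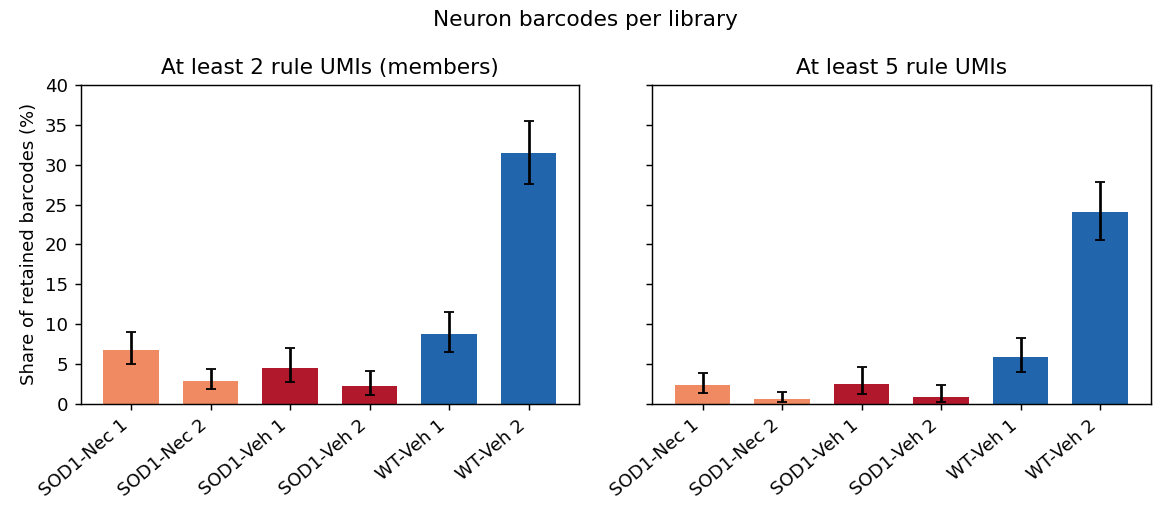
Neuron barcodes as a share of retained barcodes (%) in each library, with the membership threshold of 2 rule UMIs (left) and with at least 5 (right). Bars start at 0 and error bars are 95% Clopper-Pearson intervals; WT-Veh 2 stood at 31.4% and 24.0%, above the other 5 libraries.

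The mean share was 3.40% ± 1.57 in SOD1-Veh and 20.1% ± 16.0 in WT-Veh (SD, n = 2 each), a difference of -16.7 percentage points with an exact 2-sided permutation p of 0.333, the smallest that 2 libraries against 2 allow. SOD1-Nec averaged 4.85% ± 2.77 and differed from WT-Veh by -15.2 points (exact p = 0.333) and from SOD1-Veh by 1.45 points (exact p = 0.667). The size of the difference from WT-Veh rested on WT-Veh 2. Without that library it was -5.34 points for SOD1-Veh and -3.89 points for SOD1-Nec against WT-Veh. The tables of replicate 1 list 18169 genes and those of replicate 2 list 18650, so differences are also given within each replicate number. SOD1-Veh differed from WT-Veh by -4.23 points among replicates 1 and by -29.1 points among replicates 2. SOD1-Nec differed from SOD1-Veh by 2.30 and 0.608 points, and the sign turned to -0.503 points without SOD1-Nec 1. With every barcode thinned to 500 UMIs, which kept 361 and 427 barcodes of SOD1-Nec, 290 and 302 of SOD1-Veh and 347 and 329 of WT-Veh, the mean share was 2.76% in SOD1-Nec, 1.21% in SOD1-Veh and 12.03% in WT-Veh.

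With at least 5 rule UMIs the shares were 2.42% and 0.630% in SOD1-Nec, 2.51% and 0.915% in SOD1-Veh, and 5.83% and 24.0% in WT-Veh. The order of the genotypes was the same, and SOD1-Nec lay 0.186 points below SOD1-Veh. A share depends on the other cells counted. Skeletal muscle markers were the leading class in 17 and 52 retained barcodes of SOD1-Veh and in 0 of the other 4 libraries. The part of dissociation, mitochondrial share and cell mix in these shares was not tested.

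Neuron RNA was next compared over all retained barcodes, whatever their class, by edgeR's quasi-likelihood test on UMIs summed per library with Benjamini-Hochberg adjustment over 7457 genes. Fewer neurons and less RNA per neuron cannot be told apart in such sums. Between SOD1-Veh and WT-Veh, 5 of the 98 neuronal genes tested were lower and 0 were higher. Over all genes 0.134% were called lower, 0.55% higher and 0.684% in either direction. The median log2 fold change of the 98 was -0.91, against -0.01 over all genes, and 83 of the 98 were negative. In 48 of the 98 both SOD1-Veh libraries lay below both WT-Veh libraries, against 19.9% of all genes. The 98 include rule genes, so these counts and the median are not separate from the genes that chose the neuron barcodes.

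The 5 genes were 3 long non-coding or imprinted rule genes, Meg3 and a synaptic vesicle gene. Meg3 stood at 149 and 134 normalised CPM in SOD1-Veh and at 845 and 3667 in WT-Veh, a log2 fold change of -4.00 (SE 0.61, adjusted p = 0.0046). Snhg11 stood at 73.2 and 51.6 in SOD1-Veh and at 334 and 1475 in WT-Veh, a log2 fold change of -3.85 (SE 0.62, adjusted p = 0.0075). The WT-Veh libraries were far apart for both genes and still lay above both SOD1-Veh libraries. Miat stood at 14.2 and 4.69 in SOD1-Veh and at 103 and 316 in WT-Veh, a log2 fold change of -4.44 (SE 0.67, adjusted p = 0.0046). Peg3 stood at 28.3 and 23.4 in SOD1-Veh and at 103 and 355 in WT-Veh, a log2 fold change of -3.13 (SE 0.62, adjusted p = 0.0389). Sv2a, a glycoprotein of synaptic vesicles, stood at 14.2 and 21.1 in SOD1-Veh and at 57.2 and 127 in WT-Veh, a log2 fold change of -2.37 (SE 0.48, adjusted p = 0.0428).

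Calls without WT-Veh 2 stood at 3 of these genes. The log2 fold change was then -2.57 for Meg3 (edgeR adjusted p = 0.0081), -2.40 for Snhg11 (adjusted p = 0.0146) and -3.40 for Miat (adjusted p = 0.02). Peg3 (-1.97, adjusted p = 0.26) and Sv2a (-1.67, adjusted p = 0.3) no longer passed. Leaving out WT-Veh 1, SOD1-Veh 1, SOD1-Veh 2 or SOD1-Nec 2 in turn also changed which neuronal genes were called. No share of all genes is at hand for those fits, so their counts are not read here. Without a filter on low counts 0 were called. All 5 log2 fold changes were negative in each of these fits.

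No other neuronal gene on the lists passed the test. The 6 tested genes on the list of calcium channels and calcium release had a median log2 fold change of -2.69 and the 5 sodium channel genes -2.10, all negative and none called. The 3 neurofilament genes had a median of -1.62, the 17 pan-neuronal protein genes -0.98, the 19 axonal transport genes -0.82 and the 13 synaptic genes -0.41. Unc80 (-2.93, edgeR adjusted p = 0.0541), the vesicle-priming gene Unc13a (-4.79, adjusted p = 0.0727) and Rbfox3 (-2.94, adjusted p = 0.0836) had the next lowest adjusted p. Off the lists, A930011O12Rik, one of the 20 genes with the largest ratio in neuron barcodes, was lower (-3.50, adjusted p = 0.0411). Nefm stood at 184 and 68.0 in SOD1-Veh and at 160 and 615 in WT-Veh, and Map1b at 168 and 122 in SOD1-Veh and at 149 and 607 in WT-Veh. In both, WT-Veh 2 was high and WT-Veh 1 lay among the SOD1-Veh libraries.

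Markers of other classes moved over the same barcodes. The 9 skeletal muscle markers summed to 10438 and 20821 CPM in SOD1-Veh and to 21.3 and 19.6 in WT-Veh, with all 9 called higher. The 10 astrocyte markers summed to 2280 and 2186 CPM in SOD1-Veh and to 3003 and 3169 in WT-Veh, with 9 of 10 negative and none called. The 4 oligodendrocyte markers summed to 647 and 1248 CPM in SOD1-Veh and to 1475 and 2132 in WT-Veh, all negative, with a median log2 fold change of -0.86 and none called. The 10 neutrophil markers summed to 40089 and 29251 CPM in SOD1-Veh and to 61598 and 44387 in WT-Veh, all negative, with a median of -0.48 and none called. The part of any of these in the neuronal result was not tested.

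Meg3 and Sv2a, which the rule does not use, were also compared with all 315 neuron barcodes left out. Meg3 then had a log2 fold change of -3.06 between SOD1-Veh and WT-Veh (edgeR adjusted p = 0.0011) and Sv2a one of -2.08 (adjusted p = 0.0172). Rule genes are not read there, since the rule itself limits their UMIs in the barcodes that are left. In barcodes outside the neurons, Meg3 made up 0.0285% and 0.0147% of UMIs in SOD1-Nec, 0.00400% and 0.00929% in SOD1-Veh and 0.0320% and 0.0855% in WT-Veh.

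Necrostatin-1s and vehicle were compared within the mutant. The comparison uses the same SOD1-Veh libraries as the one above. Of the 98 neuronal genes over all retained barcodes, 0 were called by edgeR, 8 had an unadjusted p below 0.05, against 6.91% of all genes, and DESeq2 called 0. Of all genes 0.483% were called, every one of them lower, all 9 muscle markers included (summed to 45.0 and 29.1 CPM in SOD1-Nec and to 10438 and 20821 in SOD1-Veh). The median log2 fold change of the 98 was 0.40, against 0.01 over all genes, and 73 were positive. Meg3 stood at 486 and 215 normalised CPM in SOD1-Nec, and at 149 and 134 in SOD1-Veh, a log2 fold change of 1.31 (SE 0.57, adjusted p = 0.713). Snhg11 stood at 156 and 75.0 in SOD1-Nec and at 73.2 and 51.6 in SOD1-Veh (0.88, SE 0.62). Neither gene was called, and Snhg11 is a rule gene. The share of all genes with both SOD1-Nec libraries above both SOD1-Veh libraries is not at hand, so the order of the libraries is not read here.

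Against WT-Veh, 1 of the 98 neuronal genes was lower in SOD1-Nec, where 0.0402% of all genes were called. That gene was Miat, a rule gene, so no neuronal gene outside the rule was called. Miat stood at 19.0 and 6.53 normalised CPM in SOD1-Nec and at 103 and 316 in WT-Veh, a log2 fold change of -4.04 (SE 0.61, edgeR adjusted p = 0.0449). It was not called without WT-Veh 2 (-3.02, adjusted p = 0.16), without SOD1-Nec 2 (-3.43, adjusted p = 0.59) or without SOD1-Veh 2 (-4.01, adjusted p = 0.056). The median of the 98 genes was -0.56.

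**Figure D4:**
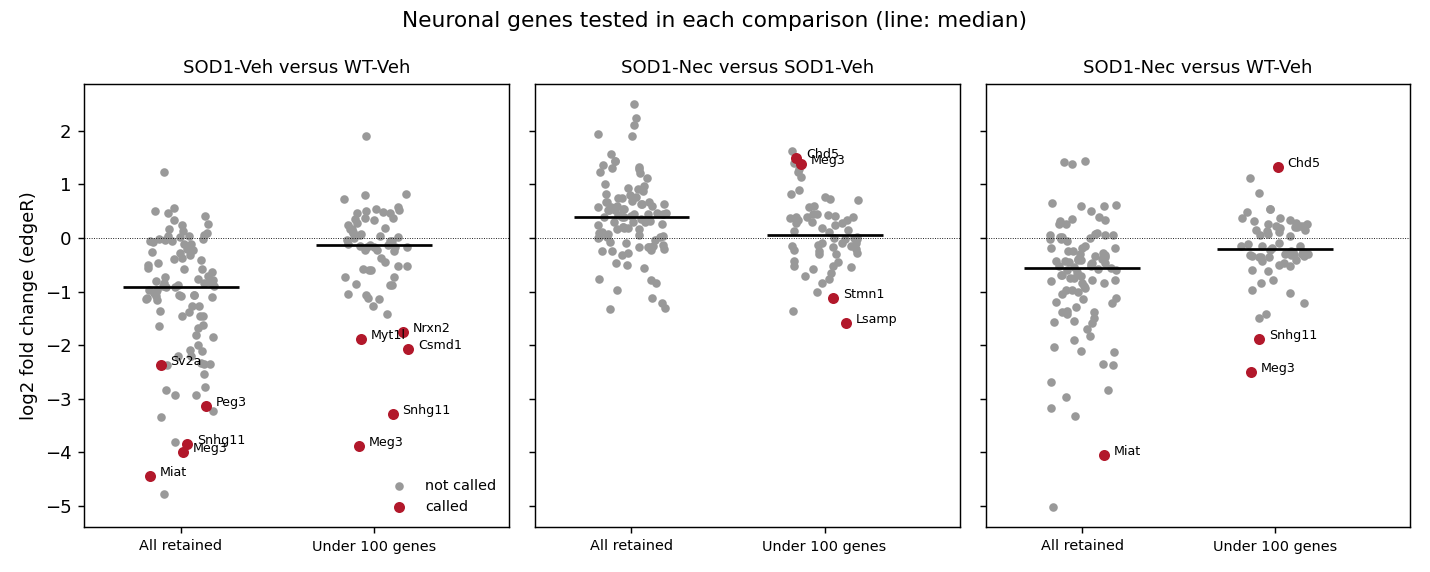
Log2 fold changes (edgeR) of the neuronal genes tested over all retained barcodes and in barcodes with under 100 genes, in each comparison; each point is a gene, red points passed an adjusted p below 0.05 and lines are medians. The SOD1-Veh versus WT-Veh median was -0.91 over all retained barcodes and -0.13 in barcodes with under 100 genes.

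Barcodes with under 100 genes held RNA that the membership rule did not touch. In this free RNA, 5 of 64 neuronal genes were lower in SOD1-Veh than in WT-Veh and 0 were higher, where 2.69% of all 1860 genes were called lower and 0.538% higher. The 64 include rule genes, with Snhg11 and Myt1l among the 5. Meg3 stood at 148 and 142 normalised CPM in SOD1-Veh and at 991 and 3284 in WT-Veh, a log2 fold change of -3.88 (SE 0.41, edgeR adjusted p = 4.9e-06). Snhg11 stood at 31.7 and 15.02 in SOD1-Veh and at 149 and 299 in WT-Veh, a log2 fold change of -3.29 (SE 0.43, adjusted p = 7.6e-05). Both passed without WT-Veh 2, at -2.83 and -2.75.

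Myt1l (-1.88, edgeR adjusted p = 0.0275), the adhesion gene Csmd1 (-2.07, adjusted p = 0.0275) and the presynaptic receptor Nrxn2 (-1.76, adjusted p = 0.0275) were the other 3. They did not pass without WT-Veh 2, at -1.26, -1.11 and -1.42, or without SOD1-Veh 2, at -2.05, -1.50 and -1.90, and Myt1l and Nrxn2 did not pass without SOD1-Veh 1, at -1.79 and -1.70. Malat1, in all cell types, stood at 2160 and 2872 normalised CPM in SOD1-Veh and at 7996 and 21556 in WT-Veh (-2.55, adjusted p = 0.00021). Of the 4 neurofilament genes tested in free RNA, 2 had positive and 2 negative log2 fold changes, and none was called. Nefm stood at 190 and 161 in SOD1-Veh and at 243 and 340 in WT-Veh (-0.74, adjusted p = 0.225) and Nefh at 66.0 and 62.2 in SOD1-Veh and at 74.5 and 108 in WT-Veh (-0.52, adjusted p = 0.624). Nefl stood at 264 and 275 in SOD1-Veh and at 193 and 224 in WT-Veh (0.37, adjusted p = 0.647). The kinesin Kif1a stood at 111 and 109 in SOD1-Veh and at 135 and 198.6 in WT-Veh (-0.60, adjusted p = 0.47), and the kinesin Kif5a at 444 and 354 in SOD1-Veh and at 387 and 400 in WT-Veh (0.02, adjusted p = 0.983). The median over the 64 genes was -0.13, against 0.02 over all genes.

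Between SOD1-Nec and SOD1-Veh the free RNA depended on its scaling. The 8 erythroid markers, mainly haemoglobin, took 690548 and 780077 CPM in SOD1-Nec, 364756 and 301926 in SOD1-Veh and 552748 and 516052 in WT-Veh. With TMM factors, which allow for such dominant genes, Chd5 stood at 165 and 147 in SOD1-Nec and at 52.8 and 57.9 in SOD1-Veh (1.49, edgeR adjusted p = 0.0085), and Meg3 at 430 and 324 in SOD1-Nec and at 148 and 142 in SOD1-Veh (1.39, adjusted p = 0.0418). The tubulin-binding Stmn1 (-1.12, adjusted p = 0.014) and the adhesion gene Lsamp (-1.59, adjusted p = 0.0163) were lower, which made 4 calls among 64 neuronal genes, where 7.58% of all genes were called. With plain library sizes the median of all genes moved to -1.43, against -0.08 with TMM, and the log2 fold changes of Chd5 and Meg3 were 0.14 and 0.06, with 38 neuronal genes called lower. Over all genes, 122 were called higher and 19 lower with TMM factors, and 56 higher and 1212 lower with plain library sizes. Against WT-Veh, Meg3 (-2.50, adjusted p = 0.0004) and Snhg11 (-1.88, adjusted p = 0.0084) were lower in SOD1-Nec and Chd5 (1.32, adjusted p = 0.0333) was higher, 3 of 64 where 5.16% of all genes were called. Without WT-Veh 2 Snhg11 did not pass (-1.31, adjusted p = 0.062), and Chd5 was at 0.93, 1.22 and 1.41, and not called, on leaving out WT-Veh 1, SOD1-Nec 1 and SOD1-Nec 2 in turn.

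**Figure D5:**
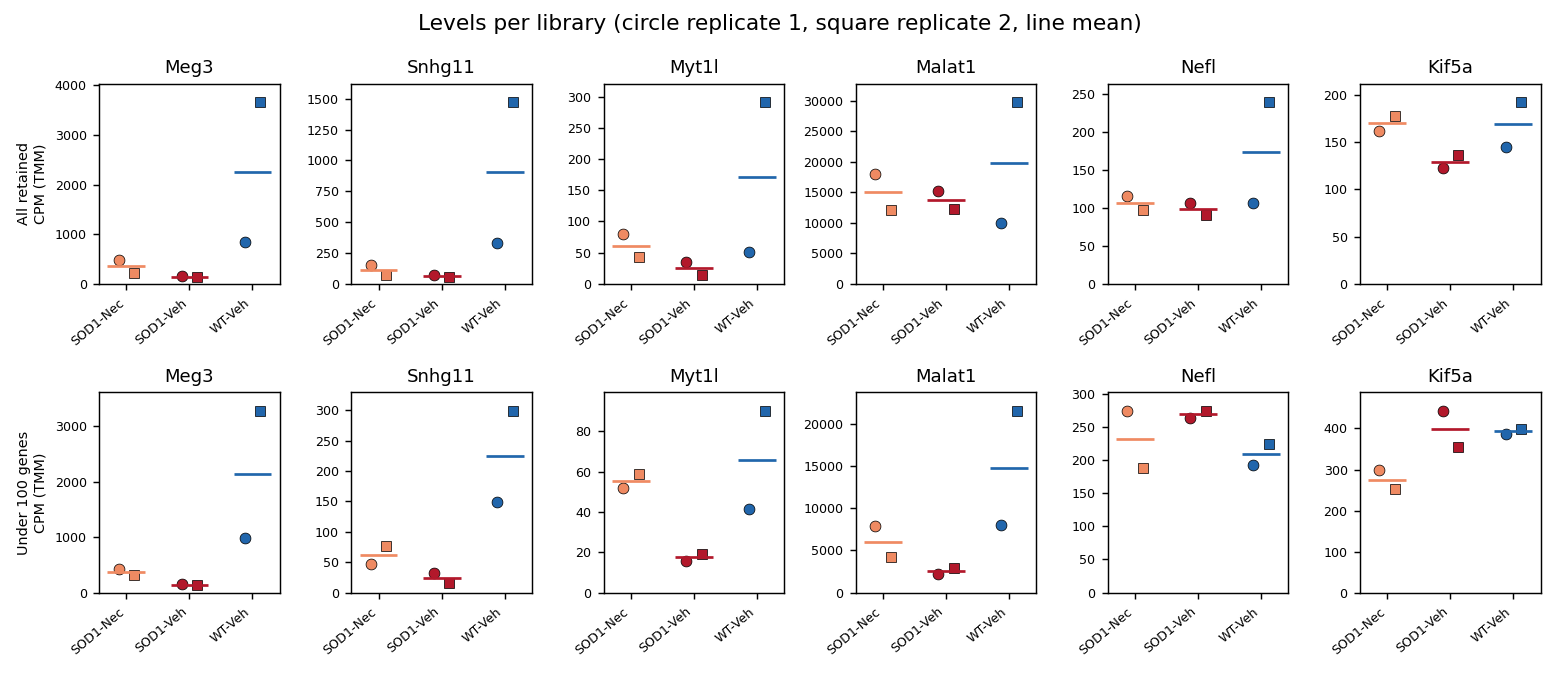
Normalised CPM of 6 genes in each library, over all retained barcodes (top) and in barcodes with under 100 genes (bottom); circles are replicate 1, squares replicate 2 and lines group means. Meg3 and Snhg11 were lower in both mutant groups than in WT-Veh in both rows, with WT-Veh 2 highest, while Nefl and Kif5a in barcodes with under 100 genes did not show that order.

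Within the neuron barcodes themselves few genes could be tested. After the filter on low counts 643 genes remained, 27 of them neuronal genes outside the rule, and the SOD1-Veh sums rested on 18 and 10 barcodes. In counts simulated at this depth with 4-fold changes, the edgeR test called 0 of 133 changed genes, so a missing call there says nothing. Between SOD1-Veh and WT-Veh 3 genes were called (0.467%), and none was neuronal. Sod1 stood at 2804 and 14219 normalised CPM in SOD1-Veh and at 471 and 288 in WT-Veh, a log2 fold change of 4.46 (SE 1.04, adjusted p = 0.0094). SOD1-Veh 2 was above SOD1-Veh 1, and both were above both WT-Veh libraries. The neutrophil gene S100a9 was lower, at 104 and 871 in SOD1-Veh and at 14317 and 7844 in WT-Veh (-4.82, adjusted p = 0.0094). The antigen-presentation gene Cd74 was higher (5.32, adjusted p = 0.024), but all 19 Cd74 UMIs of SOD1-Veh came from replicate 2, and without it the log2 fold change was -4.08. In neuron barcodes the 10 neutrophil markers summed to 554 and 1667 CPM in SOD1-Veh and to 19796 and 10220 in WT-Veh, and the 9 muscle markers to 158 and 27091 in SOD1-Veh and to 0 and 9.65 in WT-Veh. Their part in these calls was not tested.

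Meg3 within neuron barcodes stood at 3637 and 3390 normalised CPM in SOD1-Nec, at 4777 and 4063 in SOD1-Veh and at 10113 and 25414 in WT-Veh. The mutant and wild-type libraries did not overlap, as for 12.9% of genes that lay lower in both SOD1-Veh than in both WT-Veh libraries, but the log2 fold change of -2.0 between SOD1-Veh and WT-Veh (SE 0.92, edgeR adjusted p = 0.965) and that of -2.34 between SOD1-Nec and WT-Veh (adjusted p = 0.366) did not pass. In neuron barcodes with at least 5 rule UMIs Meg3 made up 0.169% and 1.03% of UMIs in SOD1-Nec, 0.596% and 0.542% in SOD1-Veh and 1.28% and 1.77% in WT-Veh. The values of SOD1-Nec 1 include the deepest barcode. Without it Meg3 made up 0.822% in the neuron barcodes of that library with at least 5 rule UMIs, and in all of its neuron barcodes 3626 CPM over all genes, against 1747 CPM with it. The log2 fold change between SOD1-Nec and WT-Veh was then -2.17 (edgeR adjusted p = 0.992).

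Between SOD1-Nec and SOD1-Veh edgeR called 0 of the 643 genes in neuron barcodes (0%), 27 had an unadjusted p below 0.05 (4.2%), and DESeq2 called 0. Between SOD1-Nec and WT-Veh 5 genes were higher (0.778%), with 0 lower. Sod1 stood at 10201 and 8084 normalised CPM in SOD1-Nec and at 471 and 288 in WT-Veh (4.59, adjusted p = 0.0065). The others were Nnat (4.39, adjusted p = 0.025) and Rarres2, Ccdc153 and Mia, with adjusted p of 0.0364 to 0.0474. The deepest barcode supplied 69 of 79, 121 of 132 and 105 of 119 UMIs of these 3 genes. Without the deepest barcode Sod1 alone was called, at 4.07 (adjusted p = 0.013), and Nnat stood at 1.02. The Sod1 log2 fold change between SOD1-Nec and WT-Veh was positive without any 1 library (3.85 to 4.42) but was then not called, and that between SOD1-Veh and WT-Veh was called without SOD1-Nec 1 alone, at 4.24 (adjusted p = 0.0287), and lay between 2.66 and 4.52 without each of the others.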

How the data were processed

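The 6 Drop-seq tables held deposited UMI counts of genes by cell barcodes, made by the authors; the build was mm9 per the submitters' processing notes, while aligner and annotation were not stated in the sources used here. Every column was used. The 17042 genes common to all libraries were analysed, at 1508618 to 1767205 UMIs per library. Neuron barcodes, their rule and all gene lists (440 symbols, 416 in the tables) were chosen with earlier results of these data known. Other barcodes were put in the class with the most marker UMIs (at least 3). Named genes were the rule genes and markers, up to 4 genes with the most UMIs per neuronal list, the 20 with the largest ratio over other barcodes, up to 8 called genes per direction, and those of smallest p. Genes outside this rule, such as Ripk1, the transmitter genes, S100a9 and those of the deepest barcode, were taken from the lists or after their values were seen.

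UMIs were summed per library over neuron barcodes, all retained barcodes or barcodes with under 100 genes, and tested over 6 libraries with edgeR 4.0.16 (R 4.3.3; TMM factors, filterByExpr, quasi-likelihood test, Benjamini-Hochberg adjusted p below 0.05 called). Normalised CPM is UMIs per 1000000 UMIs of the tested genes, with totals scaled by TMM factors; plain CPM is over all genes. DESeq2 1.42.0 was an alternative. Shares were compared by exact permutation tests (SciPy 1.17.1), and Scrublet ran in Scanpy 1.11.5. Tested on simulated counts with 4-fold changes between SOD1-Veh and WT-Veh, edgeR called 140 of 184 changed genes over retained barcodes (7041 genes), 160 of 176 in barcodes with under 100 genes (1574 genes) and 0 of 133 in neuron barcodes (538 genes). Alternatives with at least 5 rule UMIs, without the deepest barcode, without neuron barcodes bearing markers of classes rare in free RNA, with no mitochondrial limit and with plain library sizes, and descriptions without WT-Veh 2 or rule genes, were chosen after seeing the data.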

Additional observations from a re-analysis of the deposited data

How the results depend on the processing

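Results in neuron barcodes rested on 7206 to 103770 UMIs per library, and no statement of a missing change rests on them. Values below are counts of called genes unless a log2 fold change is named. For each change the cause was not tested.

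Between SOD1-Veh and WT-Veh, the 3 calls in neuron barcodes became 6 without a low-count filter, 0 with at least 400 genes, 0 with at most 10% mt- UMIs, 1 with plain library sizes, 5 with at least 5 rule UMIs, 6 without neuron barcodes carrying markers of classes rare in free RNA, and 0 to 8 leaving out 1 library. The 0 between SOD1-Nec and SOD1-Veh became 6 with at least 5 rule UMIs, 2 without the deepest barcode, 10 without those other markers, and 0 to 10 leaving out 1 library. The 5 between SOD1-Nec and WT-Veh became 1 with DESeq2, RLE factors, plain library sizes or without the deepest barcode, 0 with no filter, at least 400 genes or at most 10% mt- UMIs, 2 without doublets, 8 with at least 5 rule UMIs, 35 without those other markers, and 0 to 1 leaving out 1 library.

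Over all retained barcodes, the 5 neuronal calls between SOD1-Veh and WT-Veh became 0 with no filter, 2 with at least 400 genes, 3 without neuron barcodes, 3 with plain library sizes, and 0 to 30 leaving out 1 library. The single call between SOD1-Nec and WT-Veh became 2 with DESeq2, 0 with no filter, at least 400 genes or plain library sizes, and 0 to 11 leaving out 1 library. In barcodes with under 100 genes, the 5 calls between SOD1-Veh and WT-Veh became 2 with DESeq2, 3 with no filter, 3 with plain library sizes and 2 to 8 leaving out 1 library. The 4 between SOD1-Nec and SOD1-Veh became 1 with DESeq2, 38 with plain library sizes and 3 to 7 leaving out 1 library, and the 3 between SOD1-Nec and WT-Veh became 20 with plain library sizes and 2 to 4 leaving out 1 library. Under 50 genes a single neuronal gene could be tested, with 0, 0 and 1 calls in those 3 comparisons.

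The SOD1-Nec minus SOD1-Veh share was 2.29 points with at most 10% mt- UMIs and 2.07 with at least 400 genes (exact p = 0.333 each), where the libraries did not overlap. It turned from 1.45 to -0.503 points without SOD1-Nec 1, -0.186 with at least 5 rule UMIs and -0.125 without neuron barcodes carrying markers of any other class, and ranged from -0.503 to 3.41 leaving out 1 library. SOD1-Veh minus WT-Veh ranged from -28.0 to -5.34 and SOD1-Nec minus WT-Veh from -26.6 to -3.89.

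Some log2 fold changes turned sign. Leaving out 1 library, those in neuron barcodes between SOD1-Veh and WT-Veh ranged from -6.14 to 3.41 for Aldoa, -4.08 to 8.41 for Cd74, -1.27 to 0.76 for Malat1 and -3.17 to 6.03 for Rarres2, and between SOD1-Nec and SOD1-Veh from -8.54 to 6.54 for Cd74, -0.80 to 0.033 for Meg3, -4.07 to 3.69 for Mical3 and -0.40 to 1.60 for Sod1. In the last comparison Meg3 also turned to 0.30 with at most 10% mt- UMIs, 0.48 with at least 5 rule UMIs and 0.27 without the other markers, Malat1 to 0.29 with at most 10% mt- UMIs, and Sod1 to -0.44 with at least 3 rule UMIs and -0.29 both with at most 10% mt- UMIs and without the deepest barcode. Over retained barcodes, leaving out 1 library, Malat1 ranged from -1.07 to 0.49 (SOD1-Veh versus WT-Veh), -0.18 to 0.36 (SOD1-Nec versus SOD1-Veh) and -0.95 to 0.61 (SOD1-Nec versus WT-Veh), and Nnat from -0.52 to 2.26 in the last. Without neuron barcodes the last pair stood at 0.11 and -0.27. In barcodes with under 100 genes, leaving out 1 library, Kif5a ranged from -0.18 to 0.15 (SOD1-Veh versus WT-Veh), Nefl from -0.49 to 0.065 (SOD1-Nec versus SOD1-Veh) and -0.16 to 0.39 (SOD1-Nec versus WT-Veh), and Nefm from -0.36 to 0.11 (SOD1-Nec versus WT-Veh). Kif5a was -0.026 with DESeq2 and with RLE factors. Between SOD1-Nec and SOD1-Veh Malat1 turned to -0.18 under 50 genes and -0.025 with plain library sizes, which also turned Nefm to -0.73, and Nefl to -0.70 between SOD1-Nec and WT-Veh.

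Replicate numbers came from the titles and did not pair the samples: same-numbered deviations correlated at -0.458 to 0.237 in neuron barcodes, -0.264 to 0.177 over retained barcodes and -0.150 to 0.0541 in barcodes with under 100 genes. With the replicate block, 0 genes were called in neuron barcodes in each comparison, and 8, 0 and 1 neuronal genes over retained barcodes (SOD1-Veh versus WT-Veh, SOD1-Nec versus SOD1-Veh, SOD1-Nec versus WT-Veh) and 5, 5 and 3 in barcodes with under 100 genes. The gene test without neuron barcodes carrying markers of any other class was not run, because a library then held none.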

Other observations

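Barcodes outside the retained set also met the marker part of the neuron rule. Among the 1394 barcodes with at least 200 genes and over 20% mt- UMIs, 123 did: 11.3% and 8.02% in SOD1-Nec, 7.61% and 5.96% in SOD1-Veh and 7.23% and 12.5% in WT-Veh. Unlike among the retained barcodes, the WT-Veh libraries did not both lie above the mutant libraries there. Among barcodes with at least 100 but under 200 genes, 283 met it: 6.57% and 3.27% in SOD1-Nec, 9.29% and 4.85% in SOD1-Veh and 6.74% and 23.3% in WT-Veh, with WT-Veh 2 highest again.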
